A study of Homo sapiens with 17 samples.

Results

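Host genes of small RNAs were examined as the rows whose symbol was SNHG followed by a number (small nucleolar RNA host genes) or began with MIR and ended in HG (microRNA host genes). The rule used names alone, and 115 of 41040 named genes met it, 29 with SNHG symbols and 86 with MIR symbols. Counts were high enough for testing in 60 members, 25 of the SNHG and 35 of the MIR type. The other 55 were not tested, 13 of them being at 0 in all libraries, and the most abundant of them, MIR663AHG, had 85 counts over all libraries together. SNHG32 had at most 1 count and MIR22HG at most 2 counts in any library.

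The libraries came from IMR-90 human fetal lung fibroblasts. Untreated cells made up week 0 (5 libraries, replicates 1, 3, 4, 5 and 6), and cells given 20 µM etoposide for 48 hours, then kept without it, made up week 1 (6 libraries, titled D7) and week 4 (6 libraries, titled D28). Etoposide is a topoisomerase II poison that breaks DNA, and the series used it to bring on senescence, a lasting arrest of the cell cycle. No untreated cells of the later times were in the samples used here, so treatment and time in culture cannot be told apart. Nothing in the labels tells whether replicates were grown separately. The p-values therefore reflect library-to-library spread that could be technical.

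Small nucleolar RNAs (snoRNAs) guide chemical marks on ribosomal RNA, box C/D snoRNAs directing 2'-O-methylation and box H/ACA snoRNAs directing pseudouridylation. In vertebrates most of them lie in introns of a longer RNA, are cut free after splicing and are held by a small set of core proteins. Many SNHG transcripts carry little or no conserved protein sequence, and several are known to be degraded by nonsense-mediated decay, so the host RNA and its snoRNAs can differ in abundance. MicroRNAs are cropped from hairpins in a longer primary transcript by DROSHA and DGCR8, trimmed by DICER1 and loaded on Argonaute proteins, where bases 2 to 8, the seed, pair with target messenger RNAs. The libraries measured the host transcripts. Mature microRNAs and snoRNAs were not measured, and the few counts given to their own rows are described at the end.

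The microRNAs below are carried by 10 of the hosts described by library further on, and they are shown so that hosts with shared seeds can be compared. Not every host that differed between weeks is included. The sequences are from RefSeq (GRCh38.p14), written 5′ to 3′ with the seed in capitals, and 36 of the 60 tested members held at least 1 microRNA with a mature sequence there. MIR17HG carries a cluster on chromosome 13 in which miR-17-5p and miR-20a-5p share a seed, as do miR-19a-3p and miR-19b-3p.
miR-17-5p (MIR17HG, chr13:91350618-91350640, plus strand): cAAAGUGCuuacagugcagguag
miR-20a-5p (MIR17HG, chr13:91351072-91351094, plus strand): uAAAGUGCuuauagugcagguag
miR-18a-5p (MIR17HG, chr13:91350756-91350778, plus strand): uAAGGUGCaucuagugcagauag
miR-19a-3p (MIR17HG, chr13:91350939-91350961, plus strand): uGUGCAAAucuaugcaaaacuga
miR-19b-3p (MIR17HG, chr13:91351245-91351267, plus strand): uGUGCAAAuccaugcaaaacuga
miR-92a-3p (MIR17HG, chr13:91351361-91351382, plus strand): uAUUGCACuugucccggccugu

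MIR100HG on chromosome 11 and MIR99AHG on chromosome 21 carry parallel clusters. miR-100-5p and miR-99a-5p share a seed, let-7a-5p and let-7c-5p share another, and both hosts carry a copy of miR-125b. The let-7 seed is also found in MIR4458HG, MIRLET7A1HG, MIRLET7BHG and MIRLET7IHG, so 6 tested hosts share it.
miR-100-5p (MIR100HG, chr11:122152275-122152296, minus strand): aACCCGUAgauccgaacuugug
miR-99a-5p (MIR99AHG, chr21:16539101-16539122, plus strand): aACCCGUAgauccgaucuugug
let-7a-5p (MIR100HG, chr11:122146568-122146589, minus strand): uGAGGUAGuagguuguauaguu
let-7c-5p (MIR99AHG, chr21:16539838-16539859, plus strand): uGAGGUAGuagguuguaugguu
miR-125b-5p (MIR100HG, chr11:122099809-122099830, minus strand, and MIR99AHG, chr21:16590253-16590274, plus strand): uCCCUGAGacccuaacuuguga

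MIR222HG carries the pair miR-221-3p and miR-222-3p, which also share a seed, and the remaining hosts shown carry seeds of their own.
miR-221-3p (MIR222HG, chrX:45746180-45746202, minus strand): aGCUACAUugucugcuggguuuc
miR-222-3p (MIR222HG, chrX:45747036-45747056, minus strand): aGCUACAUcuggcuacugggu
miR-210-3p (MIR210HG, chr11:568112-568133, minus strand): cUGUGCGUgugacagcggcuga
miR-34a-5p (MIR34AHG, chr1:9151735-9151756, minus strand): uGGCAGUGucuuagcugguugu
miR-31-5p (MIR31HG, chr9:21512158-21512178, minus strand): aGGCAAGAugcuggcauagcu
miR-155-5p (MIR155HG, chr21:25573983-25574006, plus strand): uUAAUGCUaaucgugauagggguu
miR-503-5p (MIR503HG, chrX:134546371-134546393, minus strand): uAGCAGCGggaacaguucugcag
miR-924 (MIR924HG, chr18:39622153-39622172, minus strand): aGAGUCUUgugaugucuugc

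For the SNHG genes the start of transcription is shown, because messenger RNAs of ribosomal proteins begin with a C followed by pyrimidines (the 5′ terminal oligopyrimidine tract) and some snoRNA hosts are known to begin the same way. Each line gives 20 bases before and 30 bases from the RefSeq start (GRCh38.p14), 5′ to 3′ on the gene's own strand, with the unbroken run of C and T from the start base in capitals.
SNHG4 (chr5:139274081-139274130, plus strand): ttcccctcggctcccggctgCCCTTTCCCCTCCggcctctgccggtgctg
SNHG12 (chr1:28581844-28581893, minus strand): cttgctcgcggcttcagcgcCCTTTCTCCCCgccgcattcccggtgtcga
SNHG19 (chr16:2155329-2155378, minus strand): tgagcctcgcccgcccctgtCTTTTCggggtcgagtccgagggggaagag
SNHG5 (chr6:85678704-85678753, minus strand): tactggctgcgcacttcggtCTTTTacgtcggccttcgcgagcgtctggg
SNHG1 (chr11:62855856-62855905, minus strand): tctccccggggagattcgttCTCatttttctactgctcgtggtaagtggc
SNHG3 (chr1:28505923-28505972, plus strand): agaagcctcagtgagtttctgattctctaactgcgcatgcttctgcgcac
SNHG29 (chr17:16438967-16439016, plus strand): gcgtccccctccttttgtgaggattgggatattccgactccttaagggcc

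A start base C followed by 4 bases that were each C or T, searched on the gene's strand, was found in 5 of the 21 tested SNHG genes with a promoter entry (SNHG4, SNHG5, SNHG12, SNHG18 and SNHG19). By the same search it was found in 1 of 34 MIR hosts, MIR762HG, in 70.8% of 65 tested ribosomal protein genes and in 5.14% of all 27305 genes with an entry. The match describes the annotated start only. Of the 5 SNHG genes with the match, SNHG4, SNHG12, SNHG18 and SNHG19 were lower at week 4 than at week 0 and SNHG5 was not called, beside 64.0% lower among all tested SNHG genes and 33.7% lower among all genes. Without week 0 replicates 1 and 4, which are described below, SNHG18 was not called (log2 -0.19, adjusted p = 0.11) and SNHG5 was called higher (log2 0.38, adjusted p = 0.010). SNHG1 and SNHG3, whose runs are shorter, were lower as well.

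Libraries held 77162364 to 102815295 counts, and the members took 0.0930% to 0.141% of them at week 0, 0.0766% to 0.0815% at week 1 and 0.0780% to 0.0813% at week 4. All 12 fibroblast markers were tested. Their summed level was 33210 to 39124 CPM (counts scaled to a common library size) at week 0, 43173 to 45225 at week 1 and 54975 to 58138 at week 4. At week 1, 6 were called higher and 5 lower (PDGFRA and COL3A1 among them), where 32.9% and 34.0% of all genes were. At week 4, 8 were higher and 2 lower (PDGFRA and S100A4), where 33.9% and 33.7% were. The marker sums in this paragraph are CPM of plain library totals, without the TMM scaling used for single genes. All 5 epithelial markers were tested and 4 were called higher at each later time. Their summed level was 65.0 to 71.5, 235 to 275 and 193 to 213 CPM, and rested mainly on KRT8, KRT18 and KRT19. EPCAM or CDH1 was therefore also among the 4 called higher, though both had group means under 1 CPM throughout. Leukocyte markers summed to at most 0.823 CPM in any library, and PTPRC, CDH5 and PECAM1 stayed under 1 CPM in each group mean. Endothelial markers summed to 83.8 to 103 CPM at week 0, 58.3 to 62.2 at week 1 and 52.0 to 76.6 at week 4, and smooth muscle and pericyte markers to 610 to 713, 334 to 352 and 327 to 347 CPM. These sums rest mainly on TEK, MCAM and CSPG4, while PECAM1, VWF, RGS5 and DES were called higher at both times. The part of these markers in the results below was not tested, and in bulk RNA fewer cells of a type and less RNA per cell cannot be told apart.

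Week 0 replicates 1 and 4 stood apart from the other untreated libraries, and many results that rest on week 0 are also given without them. Their ribosomal protein genes took 6.38% and 5.62% of counts, against 4.20%, 3.80% and 3.48% in replicates 3, 5 and 6, 3.58% to 4.03% at week 1 and 3.78% to 4.24% at week 4. Of the 23 SNHG genes with at least 1 CPM at week 0, 12 were higher in both of these libraries than in any other untreated library and 2 were lower in both, with a median ratio of 1.26 between the means. Of 18 MIR hosts at that level 3 were higher in both and 1 lower, with a median ratio of 0.998, and over all 12350 genes at that level 25.4% were higher in both and 35.7% lower, with a median ratio of 0.951. SNHG transcripts together made up 673 to 1089 CPM at week 0 without scaling, against 587 to 617 at week 1 and 595 to 612 at week 4.

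**Figure D1:**
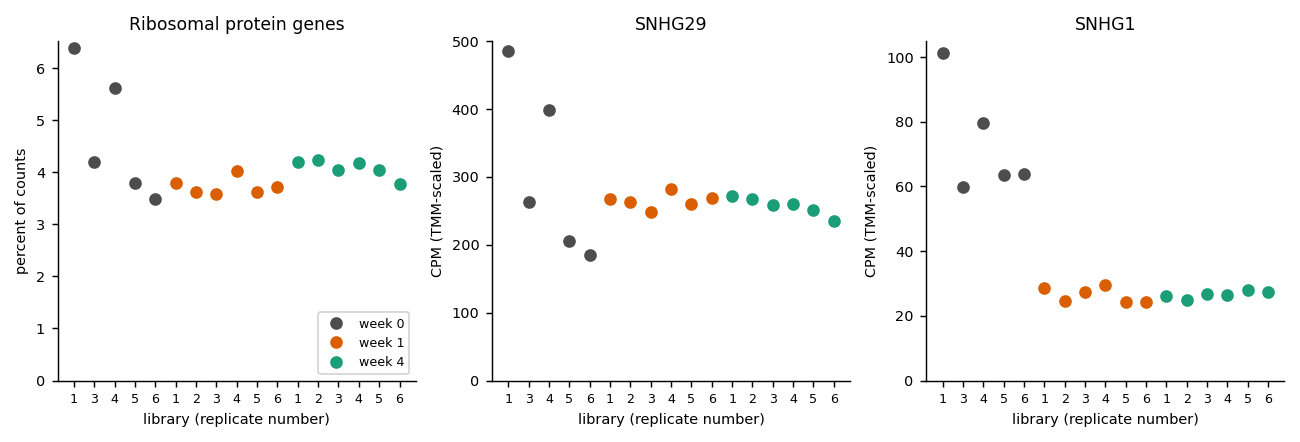
Share of counts in ribosomal protein genes (left, percent) and levels of SNHG29 and SNHG1 (CPM on TMM-scaled library sizes) in each of the 17 libraries, marked by replicate number and coloured by week. Week 0 replicates 1 and 4 are the highest points of all 3 panels, and for SNHG1 every untreated library lies above every later one while for SNHG29 the later libraries lie inside the untreated range.

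SNHG transcripts mostly fell after etoposide. At week 1, 14 of 25 were lower than at week 0 and 4 were higher (edgeR quasi-likelihood test, Benjamini-Hochberg adjusted p under 0.05 over 16891 genes), so 56.0% were called lower where 34.0% of all tested genes were, and 16.0% higher where 32.9% were. By week 4, 16 of 25 were lower and 3 higher, 64.0% against a background of 33.7% for lower calls, with 33.9% of all genes higher. The median log2 fold change of the 25 was -0.42 at week 1 and -0.79 at week 4, beside -0.02 and 0.00 over all genes tested. Without week 0 replicates 1 and 4 the counts became 12 lower and 4 higher at week 1 and 14 lower and 5 higher at week 4, with medians of -0.24 and -0.61. In that fit 11296 of 17426 genes were called in either direction at week 1 and 11299 at week 4.

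MicroRNA hosts were not called lower more often than all genes. Of 35 tested, 11 rose and 9 fell at week 1, which is 31.4% and 25.7% where 32.9% and 34.0% of all genes did. At week 4, 8 rose and 9 fell, 22.9% and 25.7% where 33.9% and 33.7% did. Their median log2 fold change was 0.10 and 0.11. Over both types, 38 of 60 members were called at week 1 and 36 at week 4, 63.3% and 60.0% where 66.9% and 67.6% of all genes were. The libraries of the groups compared did not overlap in 25 and 26 of these, 41.7% and 43.3%, against a background of 48.7% and 49.0%. Changes past 2-fold were called in 18 members at week 1 and 16 at week 4, where 20.7% and 19.7% of all genes had them. At week 1 those were 7 higher members, 11.7% against 11.6% of all genes, and 11 lower ones, 18.3% against 9.08%. At week 4 they were 5 higher, 8.33% against 12.1%, and 11 lower, 18.3% against 7.55%. Of the members higher past 2-fold, MIR3142HG, MIR3659HG, MIR99AHG and SNHG31 at both times and MIR4280HG at week 1 had a week 0 mean under the filter's limit of 0.108 CPM. They were tested only through the later groups where they were high, so nothing is read from the counts of higher members, those among microRNA hosts included.

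**Figure D2:**
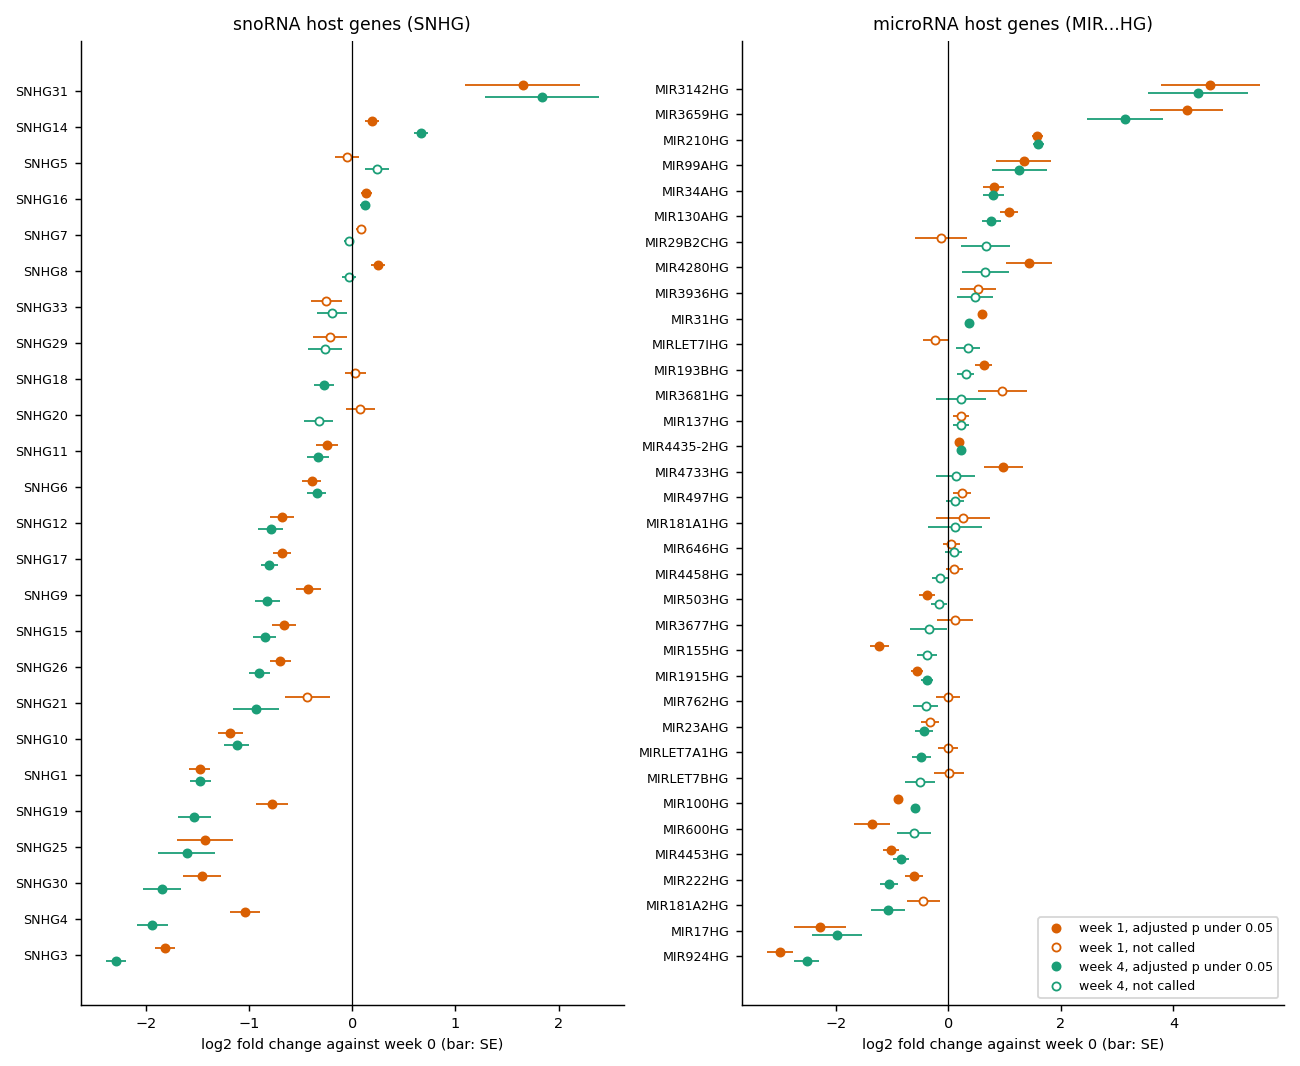
Log2 fold change against week 0 (horizontal axis, bars are standard errors) of the 25 tested SNHG genes (left) and 35 tested MIR hosts (right), at week 1 and week 4, with filled points for adjusted p under 0.05. Most SNHG points lie left of 0, with SNHG3 lowest at -2.29, while MIR hosts spread to both sides from MIR924HG to MIR3142HG.

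SNHG3, host of the H/ACA snoRNAs SNORA73A and SNORA73B, showed the deepest fall among the SNHG genes at both times. Its levels at week 0 were 51.5, 31.9, 35.4, 34.4 and 37.4 CPM in replicates 1, 3, 4, 5 and 6. The lowest, median and highest library stood at 9.40, 11.0 and 12.1 CPM at week 1 and 7.43, 7.91 and 8.04 CPM at week 4. The 3 groups did not overlap, and replicate 1 was the highest untreated library. SNHG3 was 3.51-fold lower at week 1 (log2 -1.81 ± 0.09 SE, adjusted p = 1.0e-13), 4.90-fold lower at week 4 (adjusted p = 2.6e-15) and 1.39-fold lower at week 4 than at week 1 (adjusted p = 0.00022). Without week 0 replicates 1 and 4 it was 3.2-fold lower at week 1 and 4.45-fold lower at week 4. RCC1, the exchange factor for the GTPase Ran, lies over SNHG3 on the same strand, so reads of the shared part could fall to either. RCC1 went from 78.2 ± 3.48 CPM (SD, n = 5) to 25.9 ± 1.08 and 29.9 ± 0.92 (n = 6 each), and unlike SNHG3 it rose from week 1 to week 4 (log2 0.21, adjusted p = 0.00051).

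SNHG1, in which the RefSeq tables placed 6 box C/D snoRNAs on its strand, SNORD22 and SNORD30 among them, fell by week 1 and then held its level. Untreated replicates 1, 3, 4, 5 and 6 had 101, 59.7, 79.6, 63.7 and 64.0 CPM. Week 1 ran from 24.2 through a median of 26.0 to 29.6 CPM, and week 4 from 25.0 through 26.5 to 27.8 CPM. Every untreated library was above every later one, with replicates 1 and 4 highest. The fall was 2.78-fold at week 1 (log2 -1.48 ± 0.10 SE, adjusted p = 1.4e-11) and 2.77-fold at week 4 (adjusted p = 1.7e-11), and log2 -1.24 at both times without those 2 libraries. Between weeks 1 and 4 the difference was log2 0.01 (adjusted p = 0.97).

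SNHG4, SNHG19 and SNHG9 went down in 2 steps. SNHG4 carries H/ACA snoRNAs of the SNORA74 family, and its untreated libraries had 9.70, 6.24, 8.42, 7.93 and 10.2 CPM in replicates 1, 3, 4, 5 and 6. It then ran from 3.22 (median 4.15, highest 5.12) at week 1 to 1.59 (median 2.25, highest 2.67) at week 4. All 3 groups were apart from each other. The fall was 2.05-fold at week 1, 3.82-fold at week 4 (adjusted p = 1.1e-10) and 1.87-fold between weeks 1 and 4 (adjusted p = 2.9e-05). Without week 0 replicates 1 and 4 it was 1.96-fold at week 1 and 3.66-fold at week 4. MATR3, a nuclear RNA-binding protein gene that overlaps SNHG4, had 313 ± 21.9 CPM at week 0, 237 ± 4.21 at week 1 and 268 ± 4.34 at week 4, and rose between weeks 1 and 4 (log2 0.18, adjusted p = 0.0015).

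SNHG19, host of SNORD60, had 12.7, 6.54, 8.98, 6.93 and 5.67 CPM at week 0 in the same order of replicates. Week 1 gave 4.24, 4.65 and 5.70 CPM as lowest, median and highest, and week 4 gave 2.11, 2.85 and 3.43 CPM. Week 0 and week 1 just overlapped, replicate 6 of each meeting, and week 4 lay below both. SNHG19 was 1.71-fold lower at week 1 (adjusted p = 0.00016), 2.89-fold lower at week 4 (adjusted p = 2.1e-08) and 1.69-fold lower between weeks 1 and 4 (adjusted p = 0.00048). Without week 0 replicates 1 and 4 its log2 changes against week 0 went from -0.78 to -0.43 at week 1 and from -1.53 to -1.18 at week 4, both still called. SNHG9, host of SNORA78, had 4.80, 3.56, 4.60, 3.44 and 3.01 CPM at week 0, with medians of 2.79 CPM (2.64 to 3.43) at week 1 and 2.26 CPM (1.84 to 2.39) at week 4. Its week 4 libraries were below all others, and week 1 overlapped week 0. The fall was 1.77-fold at week 4 (adjusted p = 2.9e-06), while at week 1 the log2 change of -0.42 (adjusted p = 0.0036) became -0.21 (adjusted p = 0.12) without week 0 replicates 1 and 4.

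SNHG30, host of SNORD7, varied widely among the untreated libraries, with 6.49, 3.397, 5.48, 2.73 and 3.22 CPM in replicates 1, 3, 4, 5 and 6. Week 1 spanned 1.32 to 2.04 CPM (median 1.48) and week 4 spanned 1.06 to 1.34 CPM (median 1.19). The untreated libraries were all above the later ones, replicates 1 and 4 most. SNHG30 was 2.74-fold lower at week 1 and 3.59-fold lower at week 4 (adjusted p = 1.2e-08). Without those 2 libraries the log2 changes went from -1.46 and -1.84 to -1.01 and -1.40.

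SNHG12 and SNHG15 fell by smaller amounts. SNHG12 carries 4 snoRNAs, among them SNORD99, and had 13.4, 8.68, 8.44, 10.5 and 10.2 CPM untreated, then 4.87 to 7.78 CPM (median 6.69) and 5.40 to 7.02 CPM (median 5.81). No later library reached the untreated range, and the fall was 1.60-fold at week 1 and 1.73-fold at week 4 (adjusted p = 3.9e-06). Without week 0 replicates 1 and 4 the fall of SNHG12 was 1.54-fold at week 1 and 1.66-fold at week 4. TRNAU1AP, a selenocysteine factor gene on the opposite strand over SNHG12, went from 23.7 ± 6.63 to 14.6 ± 0.50 and 16.0 ± 1.47 CPM. SNHG15, host of SNORA9, had 16.4, 11.4, 12.5, 10.4 and 12.5 CPM untreated, then 7.03 to 8.89 CPM (median 8.15) and 5.47 to 8.50 CPM (median 6.98). Again no later library reached the untreated range, with a fall of 1.58-fold at week 1 and 1.80-fold at week 4 (adjusted p = 7.9e-07). For SNHG15 the fit without week 0 replicates 1 and 4 gave 1.43-fold at week 1 and 1.63-fold at week 4.

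SNHG6, host of SNORD87, had 24.7, 20.2, 23.2, 16.7 and 16.8 CPM at week 0, 14.3 to 17.01 CPM (median 15.2) at week 1 and 14.3 to 16.9 CPM (median 16.2) at week 4. Replicates 5 and 6 of week 0 lay inside the later ranges. SNHG6 was 1.31-fold lower at week 1 (adjusted p = 0.00051) and 1.27-fold lower at week 4 (adjusted p = 0.0017). Without week 0 replicates 1 and 4 the log2 change at week 4 went from -0.35 to -0.17 (adjusted p = 0.051). The other SNHG genes called lower at both times were SNHG10, SNHG11, SNHG17, SNHG25 and SNHG26, from log2 -0.24 (SNHG11 at week 1) to -1.60 (SNHG25 at week 4), and SNHG18 and SNHG21 were called lower at week 4 alone. Without week 0 replicates 1 and 4, SNHG11 at week 1 (log2 -0.24, adjusted p = 0.063) and SNHG18 at week 4 (log2 -0.19, adjusted p = 0.11) were not called.

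**Figure D3:**
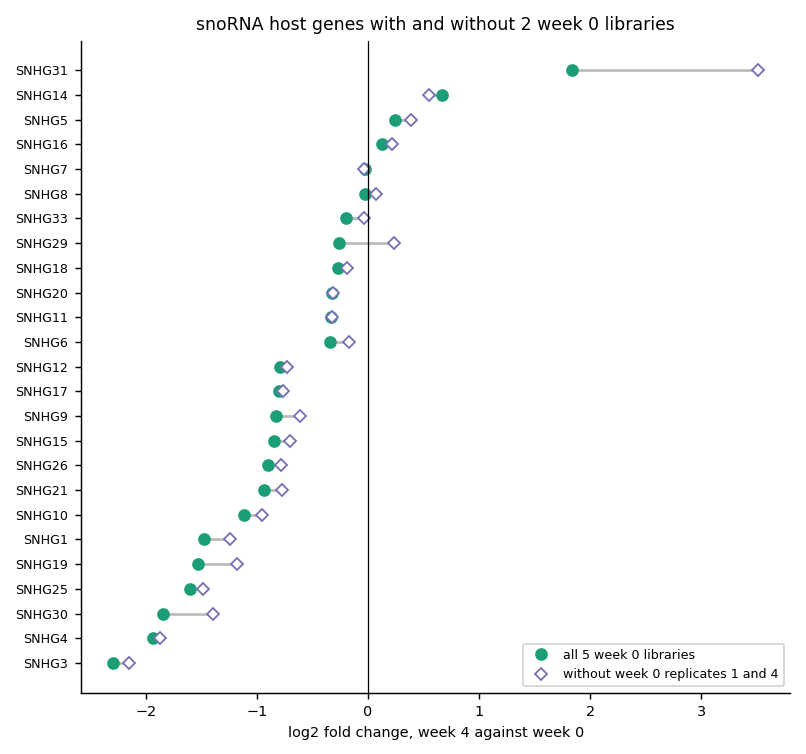
Log2 fold change of the 25 tested SNHG genes at week 4 against week 0, with all 5 untreated libraries (filled circles) and without week 0 replicates 1 and 4 (open diamonds). Most genes that lie left of 0 keep their side and move toward 0, SNHG29 crosses from -0.26 to 0.23, and SNHG31 moves from 1.84 to 3.51.

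SNHG29, host of SNORD49A, SNORD49B and SNORD65, was the most abundant host RNA in each week, and its calls depended on which untreated libraries were in the fit. Its untreated libraries had 486, 263, 399, 206 and 186 CPM in replicates 1, 3, 4, 5 and 6. The lowest, median and highest library had 248, 266 and 282 CPM at week 1 and 234, 259.5 and 272 CPM at week 4. Both later groups lay inside the untreated range, between replicates 5 and 4. No difference was called (log2 -0.21 ± 0.16 SE, adjusted p = 0.26 at week 1, and -0.26, adjusted p = 0.17 at week 4). Without replicates 1 and 4 SNHG29 was higher at both times (log2 0.28, adjusted p = 0.0015, and 0.23, adjusted p = 0.0059), whereas it was lower when the fit held only the 13 smaller files, without week 0 replicates 5 and 6 and week 1 replicates 1 and 2 (log2 -0.54, adjusted p = 0.00058, and -0.58, adjusted p = 9.5e-05). Without replicate 6 of week 0 alone it was called lower at both times (log2 -0.35, adjusted p = 0.033, and -0.40, adjusted p = 0.017), and without replicate 5 at week 4 (log2 -0.38, adjusted p = 0.038).

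SNHG14 moved the other way. It is a long transcript of the imprinted Prader-Willi and Angelman region that carries the SNORD115 and SNORD116 arrays and whose far end runs antisense to UBE3A, a ubiquitin ligase gene. Week 0 libraries had 93.4, 110.5, 94.6, 117 and 123 CPM in replicates 1, 3, 4, 5 and 6. The lowest, median and highest library had 108, 122 and 135 CPM at week 1 and 164, 169 and 182.5 CPM at week 4. Week 4 lay above all other libraries and weeks 0 and 1 overlapped. SNHG14 was 1.59-fold higher at week 4 than at week 0 (log2 0.67 ± 0.07 SE, adjusted p = 1.8e-08) and 1.39-fold higher than at week 1 (adjusted p = 5.0e-06). The week 1 difference (log2 0.19, adjusted p = 0.017) was not called without week 0 replicate 1 (log2 0.15, adjusted p = 0.057), without replicate 4 (log2 0.15, adjusted p = 0.060) or without both (log2 0.07, adjusted p = 0.26). Of the 60 tested members 31 overlap another gene in RefSeq, 20 of them one on the opposite strand, and the strand setting of the counting is unknown here, so reads cannot be told apart where such genes overlap. UBE3A itself was at 79.9 ± 7.29, 76.7 ± 3.81 and 78.0 ± 4.98 CPM in weeks 0, 1 and 4 and was not called, and SNRPN, on the same strand, rose from 8.60 ± 1.18 to 13.5 ± 0.78 and 12.99 ± 0.33 CPM.

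SNHG8 rose at week 1 and came back by week 4. This host of SNORA24 had 31.4, 26.9, 32.3, 27.3 and 26.3 CPM at week 0. Week 1 gave 31.6, 33.6 and 38.5 CPM as lowest, median and highest, and week 4 gave 25.1, 28.95 and 29.97 CPM. Week 1 lay above every week 4 library and overlapped only with week 0 replicate 4. SNHG8 was 1.19-fold higher at week 1 than at week 0 (adjusted p = 0.0027) and 1.21-fold lower at week 4 than at week 1 (adjusted p = 0.0015).

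SNHG16, SNHG7 and SNHG5 changed little. SNHG16, host of SNORD1A, SNORD1B and SNORD1C, had 41.7, 38.6, 44.4, 35.5 and 36.8 CPM at week 0, with medians of 42.9 CPM (41.2 to 45.6) and 42.7 CPM (41.7 to 44.2) at weeks 1 and 4. Replicates 1 and 4 of week 0 reached the later ranges and the other 3 did not. The differences of log2 0.14 (adjusted p = 0.027) and 0.12 (adjusted p = 0.039) were 0.22 and 0.21 without those 2 libraries. Leaving out week 0 replicate 5 took them to log2 0.10 (adjusted p = 0.10) and 0.09 (adjusted p = 0.14), and the call also ended without week 0 replicate 3 or 6 at both times, without week 1 replicate 2 at week 1, and at week 4 without week 1 replicate 1 or any of week 4 replicates 1 to 5.

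SNHG7, host of SNORA17A and SNORA17B, had 21.2, 21.3, 21.3, 21.8 and 21.3 CPM at week 0, 21.7 to 25.3 CPM (median 22.3) at week 1 and 20.0 to 22.02 CPM (median 20.7) at week 4. Its untreated libraries were closer together than those of any other named SNHG gene, and no difference was called (log2 0.09, adjusted p = 0.13 at week 1). SNHG5, host of SNORD50B, had 4.06, 2.86, 3.52, 2.94 and 3.20 CPM at week 0, 2.58 to 3.76 CPM (median 3.30) at week 1 and 3.397 to 4.78 CPM (median 3.80) at week 4. The 3 ranges overlapped. SNHG5 was called higher at week 4 than at week 1 (log2 0.29, adjusted p = 0.041), a call that ended without week 1 replicate 2, 4 or 6 or week 4 replicate 3, 5 or 6, with the smallest change without the last (log2 0.23, adjusted p = 0.12).

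**Figure D4:**
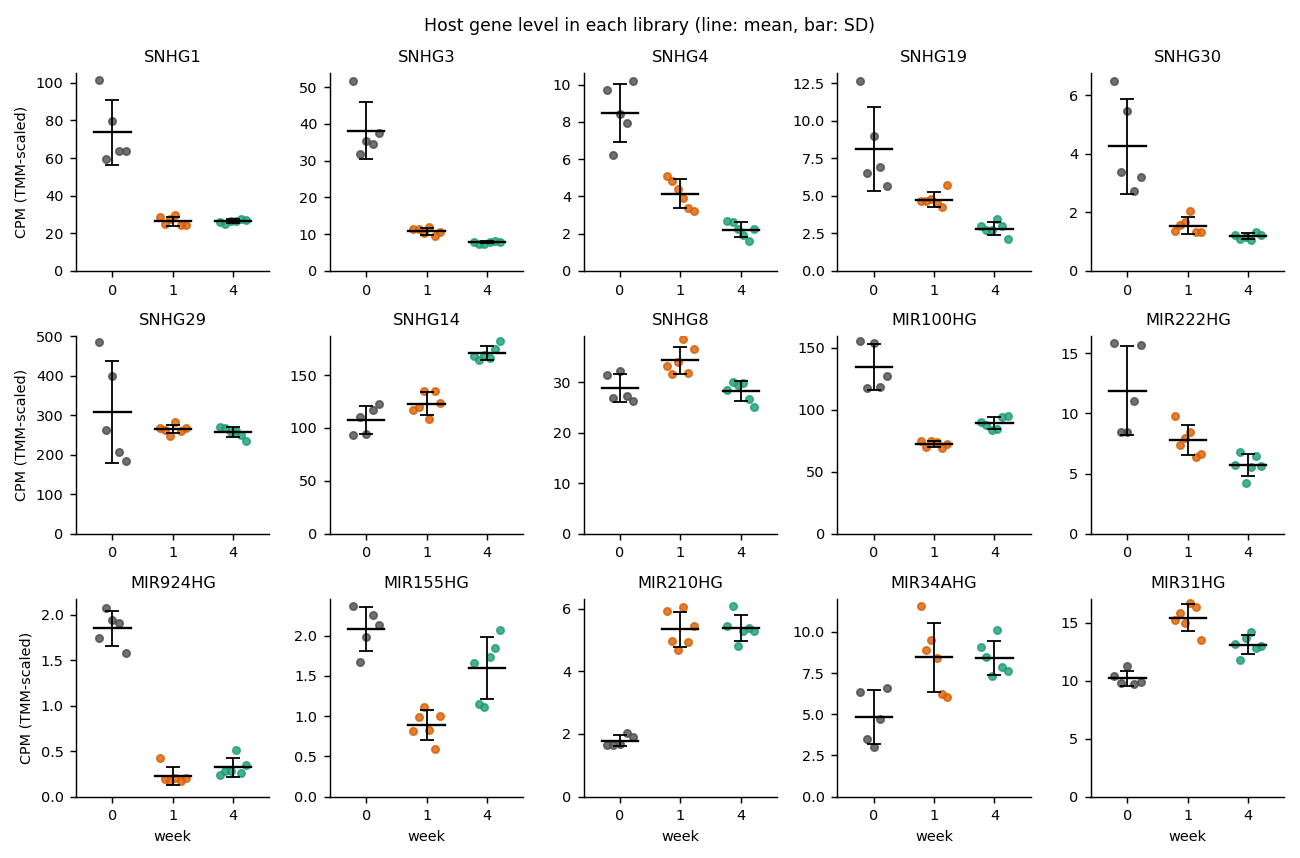
Level of 15 host genes (vertical axes, CPM on TMM-scaled library sizes, each from 0) in every library of weeks 0, 1 and 4, with lines for the mean and bars for the SD. SNHG1, SNHG3, SNHG4 and MIR924HG drop clear of the untreated libraries by week 1, SNHG14 rises at week 4, MIR210HG rises at week 1 and stays, and MIR155HG drops at week 1 and is higher again at week 4.

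Among the microRNA hosts with at least 1 CPM in some group, MIR210HG showed the largest rise. It carries miR-210, a microRNA known for its induction under low oxygen, and had 1.64, 1.65, 1.68, 2.02 and 1.92 CPM at week 0 in replicates 1, 3, 4, 5 and 6. Week 1 gave 4.68, 5.21 and 6.06 CPM as lowest, median and highest, and week 4 gave 4.81, 5.35 and 6.09 CPM. The untreated libraries were all far below the later ones, which overlapped. MIR210HG was 2.99-fold higher at week 1 and 3.02-fold higher at week 4 (log2 1.58 and 1.60, each ± 0.10 SE, adjusted p = 1.6e-12 for both).

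MIR34AHG, the host of miR-34a, a direct target of p53, also rose. Untreated libraries had 6.36, 3.52, 2.98, 4.73 and 6.598 CPM in the order of replicates 1, 3, 4, 5 and 6. The later libraries had 6.02 to 11.6 CPM (median 8.69) at week 1 and 7.35 to 10.1 CPM (median 8.18) at week 4. Week 4 lay above all untreated libraries, and week 1 overlapped them through its replicates 5 and 6. The rise was 1.75-fold at week 1 (log2 0.80 ± 0.18 SE, adjusted p = 0.0006) and 1.74-fold at week 4 (adjusted p = 0.00064). LNCTAM34A lies over MIR34AHG on the opposite strand, so reads of the pair cannot be told apart here.

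MIR31HG, a long noncoding RNA studied in senescence as a repressor of the CDKN2A locus, had 10.4, 9.81, 11.3, 9.68 and 9.91 CPM at week 0. Week 1 spanned 13.5 to 16.7 CPM (median 15.5) and week 4 spanned 11.8 to 14.2 CPM (median 13.1). Both later groups were above the untreated libraries and overlapped each other. MIR31HG was 1.51-fold higher at week 1 (adjusted p = 4.3e-08), 1.28-fold higher at week 4 (adjusted p = 5.2e-05) and 1.18-fold lower at week 4 than at week 1 (adjusted p = 0.0037). MIR4435-2HG had 34.1, 33.0, 33.1, 34.0 and 33.5 CPM at week 0, 36.5 to 41.1 CPM (median 37.4) at week 1 and 38.0 to 40.5 CPM (median 39.2) at week 4. No later library reached down to the untreated range, and the rise was 1.13-fold (adjusted p = 0.00056) and 1.17-fold (adjusted p = 6.5e-05).

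MIR130AHG had 0.671, 0.756, 0.833, 0.757 and 0.795 CPM at week 0, 1.12 to 2.18 CPM (median 1.64) at week 1 and 1.04 to 1.57 CPM (median 1.28) at week 4. All later libraries were above all untreated ones, by 2.11-fold at week 1 (adjusted p = 6.5e-06) and 1.69-fold at week 4 (adjusted p = 0.00038). MIR193BHG, host of miR-193b and miR-365a, had 1.07, 1.79, 1.34, 1.29 and 1.70 CPM at week 0, 1.90 to 2.70 CPM (median 2.18) at week 1 and 1.42 to 2.15 CPM (median 1.85) at week 4. Week 1 lay above week 0 and week 4 overlapped both. MIR193BHG was 1.54-fold higher at week 1 (adjusted p = 0.00077), and its log2 0.31 at week 4 was not called (adjusted p = 0.072), although a call came without week 0 replicate 3 or 6 or week 4 replicate 2 or 5, the largest without week 0 replicate 3 (log2 0.40, adjusted p = 0.029).

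MIR924HG showed the largest fall among the MIR hosts with at least 1 CPM in some group. Its untreated libraries had 1.74, 2.08, 1.94, 1.91 and 1.58 CPM. Week 1 ran from 0.175 through 0.197 to 0.427 CPM and week 4 from 0.237 through 0.283 to 0.512 CPM. The untreated libraries were all above the later ones, which overlapped. MIR924HG was 8.01-fold lower at week 1 (log2 -3.00 ± 0.23 SE, adjusted p = 1.3e-10) and 5.74-fold lower at week 4 (adjusted p = 1.5e-09). Between weeks 1 and 4 its log2 0.48 was not called (adjusted p = 0.12), but without week 1 replicate 1, the highest of that group, it was log2 0.76 (adjusted p = 0.0078).

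MIR17HG, the host of the oncogenic miR-17 to miR-92 cluster that MYC and E2F factors are known to drive, was scarce and fell. It had 0.493, 0.362, 0.428, 0.594 and 0.908 CPM at week 0, 0.0767 to 0.146 CPM (median 0.112) at week 1 and 0 to 0.244 CPM (median 0.148) at week 4. No later library reached the untreated range, and week 4 replicate 3 had no count. MIR17HG was 4.86-fold lower at week 1 (log2 -2.28 ± 0.46 SE, adjusted p = 0.00014) and 3.96-fold lower at week 4 (adjusted p = 0.00046).

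MIR100HG and MIR99AHG, whose microRNAs share seeds as shown above, differed in level. MIR100HG had 155, 117, 154, 118 and 127 CPM at week 0 in replicates 1, 3, 4, 5 and 6. It then had 68.9 to 74.8 CPM (median 73.3) at week 1 and 83.6 to 94.6 CPM (median 89.1) at week 4. The 3 groups did not overlap, and MIR100HG was 1.85-fold lower at week 1 (adjusted p = 7.3e-11), 1.51-fold lower at week 4 (adjusted p = 6.5e-08) and 1.23-fold higher at week 4 than at week 1 (adjusted p = 0.0007). Week 0 replicates 1 and 4 were its highest libraries. Without them the fall was 1.67-fold at week 1 and 1.36-fold at week 4. MIR99AHG had 0.147, 0.170, 0.104, 0.0575 and 0.0510 CPM at week 0, 0.0877 to 0.365 CPM (median 0.327) at week 1 and 0.0986 to 0.590 CPM (median 0.191) at week 4. The groups overlapped widely, and the rise of 2.53-fold at week 1 (adjusted p = 0.020) and 2.39-fold at week 4 (adjusted p = 0.028) rested on few counts. Its untreated mean of 0.106 CPM was under the filter's limit, so it was tested only through the later groups. It was not called without week 0 replicate 5 (log2 1.18, adjusted p = 0.053, and 1.09, adjusted p = 0.070) or replicate 6 (log2 1.16, adjusted p = 0.053, and 1.08, adjusted p = 0.071), and at week 4 without week 4 replicate 6 (log2 0.80, adjusted p = 0.13) or replicate 3 (log2 1.19, adjusted p = 0.050).

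MIR155HG, the transcript also known as BIC and host of miR-155, fell at week 1 and was higher again at week 4. Its levels were 2.37, 1.67, 1.99, 2.25 and 2.13 CPM at week 0. Week 1 spanned 0.592 to 1.12 CPM (median 0.905) and week 4 spanned 1.11 to 2.07 CPM (median 1.70). Week 1 lay below week 0, while week 4 reached into both ranges. MIR155HG was 2.34-fold lower at week 1 (adjusted p = 2.2e-06) and 1.80-fold higher at week 4 than at week 1 (adjusted p = 0.00039). At week 4 against week 0 its log2 -0.38 was not called (adjusted p = 0.053), and a call came without week 0 replicate 3, week 1 replicate 5 or week 4 replicate 5 or 6, the largest without week 4 replicate 6 (log2 -0.47, adjusted p = 0.022).

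MIR222HG and MIR503HG, the 2 X-linked hosts named here, showed the same order among untreated libraries. MIR222HG, host of 2 microRNAs known to act on the cell cycle inhibitor CDKN1B, had 15.8, 8.43, 8.41, 11.0 and 15.7 CPM at week 0, 6.40 to 9.74 CPM (median 7.68) at week 1 and 4.21 to 6.77 CPM (median 5.67) at week 4. Week 4 lay below week 0, and week 1 overlapped both. It was 1.53-fold lower at week 1 (adjusted p = 0.0018) and 2.08-fold lower at week 4 (adjusted p = 5.1e-06). Between weeks 1 and 4 the log2 change of -0.44 (adjusted p = 0.028) was not called without week 1 replicate 1 (-0.36, adjusted p = 0.078), week 1 replicate 4 (-0.42, adjusted p = 0.055) or week 4 replicate 3 (-0.37, adjusted p = 0.071).

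MIR503HG had 22.1, 11.7, 11.5, 17.3 and 19.6 CPM at week 0, 10.1 to 15.7 CPM (median 13.1) at week 1 and 12.9 to 16.8 CPM (median 14.2) at week 4. The 3 ranges overlapped. It was called 1.297-fold lower at week 1 (log2 -0.38, adjusted p = 0.026), a call that ended without week 0 replicate 1 or 6 or week 1 replicate 5 or 6, with the smallest change without week 0 replicate 1 (log2 -0.25, adjusted p = 0.12). In MIR34AHG, MIR222HG and MIR503HG alike, week 0 replicates 1, 5 and 6 were above replicates 3 and 4, and week 1 replicate 1 was above replicates 5 and 6. This order was seen after the values were known.

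The widest fold changes belonged to hosts near the lower limit of testing, singled out here after their values were seen. MIR3142HG had on average 0.4 counts per library at week 0 and 12 and 10.7 at weeks 1 and 4, and MIR3659HG had 1.2, 22.7 and 11.2. Both were called higher at both times (adjusted p = 6.9e-05 and 0.00014 for MIR3142HG, 4.9e-06 and 0.00029 for MIR3659HG), and with so few untreated counts their fitted folds have no firm size. SNHG31, called higher at both times, had 0.189 and 0.0925 CPM in week 0 replicates 1 and 4 and 0.0192 to 0.0213 CPM in the other 3, so its log2 1.84 at week 4 (adjusted p = 0.0055) was 3.51 without them. With only the 13 smaller files neither call held (log2 1.10, adjusted p = 0.12 at week 1, and 1.26, adjusted p = 0.054 at week 4). Of the 60 tested members 18 stayed under 1 CPM in each group mean, and 6 had a group mean under the filter's limit of 0.108 CPM, so they were tested through the group where they were higher.

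From week 1 to week 4, 5 of 60 members rose and 11 fell, 8.33% and 18.3%, where 21.8% and 18.6% of all genes did. With week 0 replicates 1 and 4 left out, or with only weeks 1 and 4 fitted, 17 members fell. In those fits 8310 of 17426 and 8268 of 16179 genes were called in either direction, against 6835 of 16891. The higher ones were SNHG5, SNHG14, MIR100HG, MIR155HG and MIRLET7IHG. Among the 11 lower ones 7 were SNHG genes (SNHG3, SNHG4, SNHG8, SNHG9, SNHG18, SNHG19 and SNHG20). In the edgeR fit of all 17 libraries no member was called past 2-fold, against 4.13% of all genes (2.99% higher and 1.14% lower), and MIR3659HG alone was past it at an unadjusted p under 0.05 and among calls by DESeq2 or limma, 1 member by each. In edgeR fits of fewer libraries MIR3659HG passed it without week 0 replicates 1 and 4 (log2 -1.09, adjusted p = 0.037) and MIR4280HG with only the 13 smaller files (log2 -1.04, adjusted p = 0.041). Among the 60, 7 were called with no overlap of libraries, 11.7% against a background of 28.5%.

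Levels of different hosts were compared per kilobase of the gene length that 4 of the files give. SNHG29 led in each week, with 34.4 ± 14.5 CPM per kilobase at week 0 (SD, n = 5), 29.7 ± 1.25 at week 1 and 28.8 ± 1.48 at week 4 (n = 6 each). At week 0 SNHG1 followed with 18.5 ± 4.32, SNHG19 with 13.3 ± 4.55 and SNHG3 with 9.33 ± 1.90 CPM per kilobase. The ranges of neighbours in this order overlapped across libraries, SNHG29 with SNHG1 included. Within each single untreated library, however, these hosts kept the same order. At week 1 the next were SNHG19 with 7.75 ± 0.81 and SNHG16 with 7.49 ± 0.28, which differed by less than their spread. At week 4 SNHG16 stood next with 7.44 ± 0.16, above SNHG1 with 6.68 ± 0.25 CPM per kilobase. The gene length counts all annotated exons, so a host with long rare exons appears low.

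**Figure D5:**
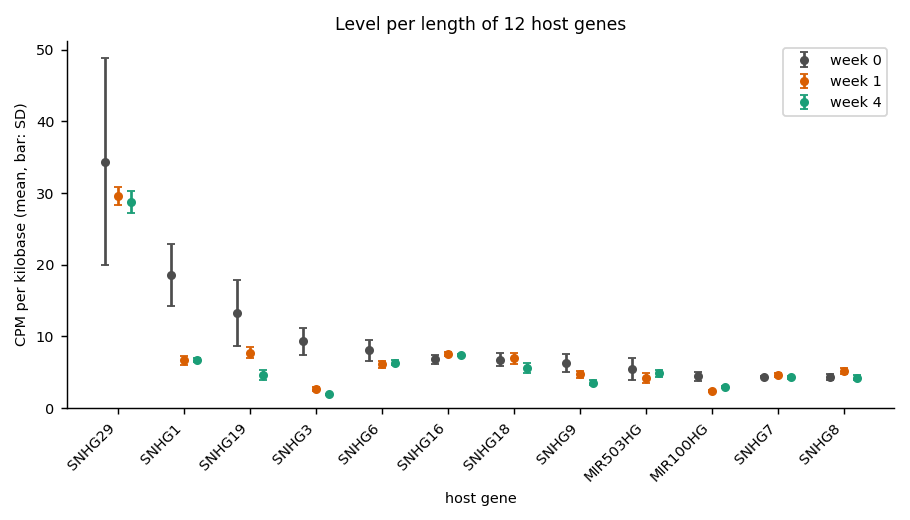
Level per gene length (CPM per kilobase, mean with SD bars over 5, 6 and 6 libraries) in weeks 0, 1 and 4 of the 12 host genes highest at week 0. SNHG29 is highest in each week, with an untreated SD of 14.5, while SNHG1, SNHG19 and SNHG3 are lower in both later weeks and SNHG16 and SNHG7 stay near their untreated level.

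Transcripts for the proteins that bind and assemble snoRNAs were mostly lower as well. Of 17 tested genes of the snoRNP core and its assembly, 14 were lower and 2 higher at week 1 and 14 were lower and 0 higher at week 4, with median log2 fold changes of -0.60 and -0.68 (ZNHIT3 was not tested). Over all genes 34.0% were lower and 32.9% higher at week 1, and 33.7% and 33.9% at week 4. The 0 higher at week 4 came from edgeR, DESeq2 and limma alike, and 0 were higher at an unadjusted p under 0.05. FBL, the methyltransferase fibrillarin, went from 110 ± 1.33 CPM at week 0 to 53.1 ± 3.01 at week 1 and 74.0 ± 2.03 at week 4 (adjusted p = 8.4e-16 and 4.5e-11). DKC1, the pseudouridine synthase dyskerin, went from 98.4 ± 3.51 to 53.5 ± 1.72 and 51.9 ± 1.29 CPM (adjusted p = 6.8e-15 and 3.3e-15). NOP56, a core protein of box C/D particles and itself a snoRNA host, went from 156 ± 13.8 to 101 ± 5.12 and 79.6 ± 3.19 CPM (adjusted p = 6.3e-10 and 3.2e-13). The 2 that rose at week 1 were ZNHIT6, an assembly factor (log2 0.22, adjusted p = 0.0041), and SNU13, a core C/D protein (log2 0.19, adjusted p = 0.028).

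SnoRNA hosts with other names were also lower more often than higher. Of 20 tested, 12 were lower and 2 higher at week 1 and 13 lower and 3 higher at week 4, with medians of -0.31 and -0.32, nearer to 0 than those of the SNHG genes at both times. The shares over all genes were 34.0% lower and 32.9% higher at week 1, then 33.7% and 33.9%. DANCR, a noncoding host, fell from 27.8 ± 4.24 CPM to 9.96 ± 0.82 and 7.78 ± 0.40 (adjusted p = 4.2e-13 and 1.3e-14), and CWF19L1, a protein-coding host, fell from 32.2 ± 7.69 to 10.7 ± 0.82 and 12.6 ± 0.48 CPM. EPB41L4A-AS1 rose from 5.06 ± 0.99 to 6.31 ± 0.32 and 7.23 ± 0.81 CPM (adjusted p = 0.012 and 0.00019). GAS5, a host of many C/D snoRNAs that begins with an oligopyrimidine tract, had 256, 127, 198, 115 and 108 CPM in untreated replicates 1, 3, 4, 5 and 6, the same order of libraries as SNHG29. Its later means were 127 ± 8.196 and 111 ± 4.52 CPM, called lower at week 4 (log2 -0.54, adjusted p = 0.0034) and not at week 1 (adjusted p = 0.055). Without week 0 replicates 1 and 4 the counts over the 20 were 10 lower and 4 higher at week 1 and 13 lower and 5 higher at week 4.

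Genes that process microRNAs fell at week 1 in 11 of 13 cases, and 1 rose, where 34.0% of all genes fell and 32.9% rose. At week 4, 6 were lower and 3 higher than at week 0, where 33.7% and 33.9% of all genes were, and without week 0 replicates 1 and 4 those counts were 8 and 1. Between weeks 1 and 4, where 21.8% of all genes rose and 18.6% fell, 6 rose and 0 fell by edgeR, DESeq2 or limma, also at an unadjusted p under 0.05, and 1 fell without the same 2 libraries. DGCR8, the partner of DROSHA, went from 51.4 ± 4.00 CPM to 32.3 ± 1.12 and 31.6 ± 1.70 (adjusted p = 2.3e-10 and 1.1e-10). TARBP2, the partner of DICER1, went from 26.4 ± 3.02 to 17.3 ± 0.72 and 15.8 ± 0.99 CPM (adjusted p = 4.4e-08 and 2.0e-09). DICER1 rose from 50.6 ± 7.86 to 60.8 ± 8.58 and 76.3 ± 6.28 CPM (adjusted p = 0.021 and 1.6e-05). AGO2, the slicing Argonaute, fell at week 1 to 67.9 ± 5.56 CPM from 82.7 ± 10.2 and stood at 90.3 ± 4.44 at week 4 (log2 0.41 between weeks 1 and 4, adjusted p = 3.6e-05).

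Among nonsense-mediated decay factors 4 of 10 rose and 4 fell at week 1 and 3 rose and 4 fell at week 4, near the shares over all genes (32.9% and 34.0%, then 33.9% and 33.7%). SMG6, the endonuclease of the pathway, rose from 40.4 ± 4.36 CPM to 55.3 ± 1.57 and 62.1 ± 2.61 (adjusted p = 4.0e-07 and 3.2e-09), and SMG1, its kinase, from 75.6 ± 12.5 to 99.5 ± 16.4 and 137 ± 5.36 CPM. UPF3B fell from 17.9 ± 1.18 to 12.6 ± 0.97 and 12.03 ± 0.60 CPM, and UPF1, the helicase, from 138 ± 13.4 to 121 ± 2.09 and 112 ± 2.44 CPM (adjusted p = 0.0018 and 2.1e-05).

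Of 25 protein-coding genes with microRNAs in their introns, 9 rose and 11 fell at week 1 and 11 rose and 9 fell at week 4, again near the shares over all genes (32.9% and 34.0%, then 33.9% and 33.7%). The members named next were the most strongly called. MCM7, a replication helicase subunit that carries the miR-106b to miR-25 cluster, fell from 257 ± 13.2 CPM to 38.7 ± 1.71 and 47.3 ± 2.22. SMC4, a condensin subunit that carries miR-15b and miR-16, fell from 207 ± 22.1 to 25.6 ± 1.99 and 36.4 ± 4.82 CPM. MEST, an imprinted gene that carries miR-335, rose from 49.3 ± 2.84 to 319 ± 8.05 and 281 ± 6.96 CPM, and SREBF2, the regulator of cholesterol synthesis that carries miR-33a, rose from 54.0 ± 4.87 to 179.9 ± 5.28 and 183 ± 9.43 CPM. The adjusted p-values of these 4 genes ran from 1.7e-21 (MEST) to 1.9e-17 (SREBF2) at week 1 and from 9.1e-21 (MEST) to 6.3e-17 (SMC4) at week 4.

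Rows of the small RNAs themselves held few counts. The RefSeq table placed 126 snoRNA rows inside 25 tested hosts on the host's strand. Of these rows 16 had any count, with 2156 counts in all against 1008559 for their hosts. Of 62 microRNA rows inside 36 hosts, 14 had any count, with 298 counts in all against 335781. The most were 647 counts for SNORD104, more than the 435 of its host SNHG25, and 596 for SNORA73B in SNHG3. These rows were not compared between weeks here, and they give no level of the mature small RNAs.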

How the data were processed

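The 17 libraries of bulk RNA were counted by gene symbol. The authors deposited raw counts per gene, not normalized, with HISAT2 2.0.5.2 and featureCounts 1.4.6 named in the submitters' processing notes. Those notes name the mouse build mm10 although the symbols are human, so no coordinates of the files are given. How strand and multi-mapping reads were handled, and with which annotation, is not given in the sources used here. The deposited row without a gene name (0.221% to 0.289% of counts) was left out.

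The 17 libraries were fitted together with edgeR 4.0.16 in R 4.3.3 (TMM scaling, filterByExpr by group, quasi-likelihood test of 3 contrasts, Benjamini-Hochberg over 16891 genes, call at an adjusted p under 0.05). Levels are CPM on TMM-scaled library sizes unless said otherwise. Unscaled CPM shift the median gene by log2 -0.12 at week 1 and -0.14 at week 4 against week 0, and by -0.02 between them, so changes are relative to TMM scaling. The standard error is the log2 fold change over the square root of F. DESeq2 1.42.0, limma 3.58.1, other scalings, filters, terms and library subsets were alternatives, and the fit was tested on simulated data.

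The members and gene lists were chosen with earlier results of these data known. Values by library are given for the 10 most abundant members, for up to 4 members in each direction of each comparison with the largest change among those called, without overlap and with at least 1 CPM in a group, and for a set list of known hosts. From each list of related genes up to 2 genes in each direction with the smallest adjusted p could be named. Hosted small RNAs, overlaps and sequences came from RefSeq tables (GRCh38.p14), in which 112 of 115 members were found. Small RNAs were kept only where their strand could be looked up and matched the host's, so a host may carry more than are given.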

Additional observations from a re-analysis of the deposited data

Results flagged for a closer look

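In 5 of 84 groups of libraries of a named host, 1 library lay further from the rest than Dixon's limit, about as often as chance alone flags 1 in 20 groups. SNHG3 was at 51.5 CPM in week 0 replicate 1, where the other untreated libraries had 31.9 to 37.4 CPM. MIR924HG was at 0.427 CPM in week 1 replicate 1, against 0.175 to 0.201 CPM in the others. SNHG7 was at 21.8 CPM in week 0 replicate 5 (others 21.2 to 21.3 CPM) and at 25.3 CPM in week 1 replicate 4 (others 21.7 to 22.6 CPM). SNHG12 was at 7.02 CPM in week 4 replicate 4, against 5.40 to 5.89 CPM.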

How the results depend on the processing

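The 28 hosts named in 3 comparisons gave 84 results and 2430 values under alternatives. Of these, 2285 kept their side of the threshold, 102 lost and 41 gained a call in the same direction, and 2 turned direction with a call. Among the 2285, results called in neither fit could change sign. SNHG8 at week 4 against week 0, for example, went from log2 -0.03 to 0.07 without week 0 replicates 1 and 4, neither called. The 2 that turned with a call were SNHG29 without week 0 replicates 1 and 4, at log2 0.28 and 0.23. The cause of these and of the changed counts that follow was not tested. By construction a minimum fold is harder to pass, and a stricter filter leaves fewer genes to test. Tested against a minimum of 2-fold (glmTreat), 3 members were higher and 5 lower at week 1, 3 higher and 8 lower at week 4, and 0 and 0 between weeks 1 and 4. Of all 16891 genes that test called 2193, 1991 and 150 in either direction. With at least 1 CPM in 5 libraries required, 44 members were tested and 7 were higher at week 4. There 9848 of 12864 genes were called in either direction. Between weeks 1 and 4, 17 were lower with only those 2 groups fitted and 17 without week 0 replicates 1 and 4. Leaving out 1 library at a time gave 13 to 16 higher and 21 to 24 lower members at week 1, 9 to 12 and 23 to 28 at week 4, and 3 to 6 and 8 to 12 between weeks 1 and 4. The 3 higher came without week 1 replicate 2, week 4 replicate 3 or week 4 replicate 6. Of 16769 to 17136 genes tested, these fits called 10981 to 11372 at week 1, 11013 to 11356 at week 4 and 6218 to 7308 between weeks 1 and 4.

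Libraries with the same replicate number did not deviate together (correlations of -0.082 to 0.144 over 16 pairs, 2 of them over 0.1), so the numbers were not taken as pairs. With the number as a block, 15 members were higher and 23 lower at week 1, 11 and 25 at week 4, and 4 and 11 between weeks 1 and 4. Of all 16891 genes the block fit called 11096, 11180 and 6669 in either direction. With at least 77162364 counts per library, depth limits only hosts of few counts, as the 55 untested members were.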
